A study of Mus musculus with 11 samples.

Results

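Voltage-gated sodium channel alpha subunits form the pore that carries the rising phase of the action potential. Of the 55401 genes listed in the deposited files, 8 were followed here by their gene name in every library: Scn1a, Scn2a, Scn3a, Scn7a, Scn8a, Scn9a, Scn10a and Scn11a. All 8 were counted in all 11 libraries, and all 8 passed the filter on low counts. The libraries came from sensory neurons of the mouse trigeminal ganglion that had taken up DiI, a lipophilic dye carried back from nerve endings to the cell body. Both ganglia of a mouse were dissociated, and dye-positive cells were sorted by fluorescence into lysis reagent. The series asks how CGRP, a neuropeptide of pain-sensing neurons, ties tumour pain to escape from immune attack in oral cancer. Mice with tumours of MOC1, a line derived from mouse oral carcinoma, gave 3 female and 3 male libraries. Sham mice were also injected with DiI and gave 3 female and 2 male libraries. No label gives strain, age, tumour site or time after implantation, and none says whether each library was a separate animal.

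Each of these proteins is a single long chain of homologous domains that fold around a pore, and the genes differ in where they are expressed and in their block by tetrodotoxin. Scn1a (NaV1.1), Scn2a (NaV1.2), Scn3a (NaV1.3), Scn8a (NaV1.6) and Scn9a (NaV1.7) encode channels that tetrodotoxin blocks, while Scn10a (NaV1.8) and Scn11a (NaV1.9) encode the resistant channels of pain-sensing neurons. Loss of human SCN9A abolishes pain, and gain-of-function changes in SCN9A, SCN10A or SCN11A cause pain disorders. Scn7a (NaX) is a divergent member that is known as a sensor of extracellular sodium and not as an ordinary voltage-gated channel.

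The tetrodotoxin classes can be read in the messages themselves, in the pore loop of the first domain. The following 36-base stretches of coding sequence were taken 5′ to 3′ from GENCODE M21 transcripts (GRCm38), with the codon of the known toxin-binding residue in capitals.
Scn2a: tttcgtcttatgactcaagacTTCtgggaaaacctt
Scn3a: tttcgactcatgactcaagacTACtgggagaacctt
Scn8a: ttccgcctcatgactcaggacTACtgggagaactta
Scn9a: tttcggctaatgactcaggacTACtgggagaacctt
Scn10a: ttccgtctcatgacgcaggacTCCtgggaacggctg
Scn11a: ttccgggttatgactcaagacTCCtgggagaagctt
Scn7a: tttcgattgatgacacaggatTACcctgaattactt
The capital codon encodes phenylalanine in Scn2a and tyrosine in Scn3a, Scn8a and Scn9a, the aromatic residues of the sensitive channels. In Scn10a and Scn11a it encodes serine, the residue of the resistant channels, at codons 356 and 385 of the reading frames used. The Scn9a codon is number 362. Scn7a has tyrosine there, but its next codon encodes proline where the 6 others shown have tryptophan.

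Each library held 10757426 to 16703797 counts in genes, and the least counted of the 8 genes, Scn3a, had at most 307 counts in a library. MOC1 and sham libraries differed in their cell type markers, summed here as CPM. For these marker sums, CPM are counts per 1000000 counts in genes of the library, without further scaling. For the 16 markers of satellite glia, which ensheath neuronal cell bodies, the sums were 4615 ± 854 CPM in the MOC1 group (SD, n = 6; 3450 to 5873) and 9461 ± 732 CPM in the sham group (SD, n = 5; 8598 to 10590). For the 20 pan-neuronal markers they were 16582 ± 343 CPM (15962 to 16991) in the MOC1 group and 13955 ± 1303 CPM (11796 to 15084) in the sham group. Markers of squamous epithelium summed to at most 10.3 CPM in an MOC1 and 7.43 CPM in a sham library, with the keratins Krt5 and Krt6a at 0 throughout, and those of skeletal muscle to at most 8.01 and 6.96 CPM. Endothelial markers summed to 851 CPM in sham female 1 and to at most 148 CPM in any other library. In bulk RNA, fewer cells of a type and less RNA per cell cannot be told apart.

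The family was dominated by the resistant pair. Levels were compared between genes as CPM after TMM scaling (a scaling of libraries that assumes most genes do not change) divided by the length in kb of the union of protein-coding exons. The CPM of single genes below are also after TMM scaling, unlike the marker sums. Scn10a stood highest, at 319 ± 43.4 CPM per kb in MOC1 and 293 ± 15.5 in sham libraries, and Scn11a followed at 243 ± 36.5 and 235 ± 14.2. The ranges of these genes overlapped between libraries, but within every library Scn11a was below Scn10a, at 0.712 to 0.809 of its level in MOC1 and 0.723 to 0.852 in sham libraries. Scn7a (112 ± 9.49 in MOC1, 88.5 ± 11.1 in sham) and Scn9a (110 ± 7.76 in MOC1, 84.9 ± 5.29 in sham) formed the next pair, and their levels could not be ordered. The ratio of Scn7a to Scn9a ranged from 0.906 to 1.16 in MOC1 and from 0.870 to 1.16 in sham libraries. Scn8a, the channel of the nodes of Ranvier, and Scn1a were far lower. Scn8a averaged 12.9 ± 1.86 CPM per kb in MOC1 and 9.84 ± 1.85 in sham libraries, and Scn1a 12.4 ± 3.39 and 9.67 ± 1.34, with overlapping ranges. Scn2a (2.73 ± 0.675 in MOC1, 2.49 ± 0.491 in sham) and Scn3a (1.17 ± 0.548 in MOC1, 1.19 ± 0.272 in sham), which are known mainly from brain and from developing or injured neurons, were lowest.

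**Figure D1:**
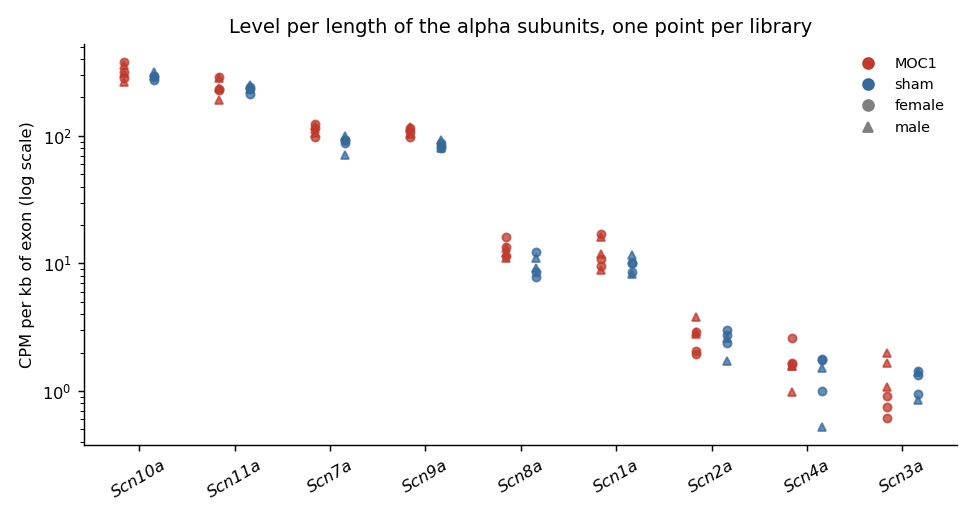
Level of each alpha subunit gene in CPM per kb of protein-coding exon on a log axis, with 1 point per library (MOC1 red, sham blue; circles female, triangles male). Scn10a and Scn11a lie above Scn7a and Scn9a, and Scn8a and Scn1a lie above Scn2a and Scn3a, in both conditions. Scn4a, the skeletal muscle subunit, lies among the lowest genes.

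As shares of the summed level per kb of the 8 genes, Scn10a held 39.2% in MOC1 and 40.4% in sham libraries, and Scn11a held 29.8% in MOC1 and 32.4% in sham. Scn9a held 13.5% in MOC1 and 11.7% in sham, and Scn7a 13.9% and 12.2%. The 4 remaining genes held between 0.147% and 1.61% each in MOC1 and between 0.166% and 1.36% each in sham libraries. The exon lengths exceed the coding lengths, as in Scn8a (15.031 kb against 5.967 kb) and Scn9a (10.025 kb against 5.955 kb). On coding length alone, a choice added after the data had been seen, the mean of Scn9a stood above that of Scn7a, with 185 CPM per coding kb against 163 in MOC1 and 143 against 129 in sham libraries. In sham female 2 Scn9a was not above Scn7a (134.2 against 134.5). On that scale Scn8a stood above Scn1a, with 32.5 against 17.5 in MOC1 and 24.8 against 13.7 in sham libraries.

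MOC1 libraries were then compared with sham libraries, with sex as a further term. Scn9a and Scn7a were higher in MOC1, at 1.29-fold and 1.27-fold under TMM scaling, and no alpha subunit was called lower. Thus 2 of the 8 members were called higher, where 2.34% of the 16817 genes tested were called higher and 4.28% lower (edgeR quasi-likelihood test, Benjamini-Hochberg adjusted p below 0.05 over all genes tested). At an unadjusted p below 0.05 there were 4 of the 8, where 18.5% of all genes tested passed. The log2 fold changes of the 8 genes had a median of 0.24, and 7 of them were above 0, beside a median of -0.03 over all genes tested. The 20 pan-neuronal markers had a median of 0.28 with 9 called higher, including the neuronal tubulin Tubb3 (0.39 ± 0.08, adjusted p = 0.00308). When libraries were scaled to the summed counts of those markers, the median over all genes moved to -0.30, the signs of Scn2a, Scn10a and Scn11a turned to below 0, and no alpha subunit was called. The split of all calls then changed from 394 higher and 719 lower to 27 higher and 2008 lower. The calls on Scn9a and Scn7a therefore held relative to all counted RNA and not relative to the pan-neuronal markers.

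**Figure D2:**
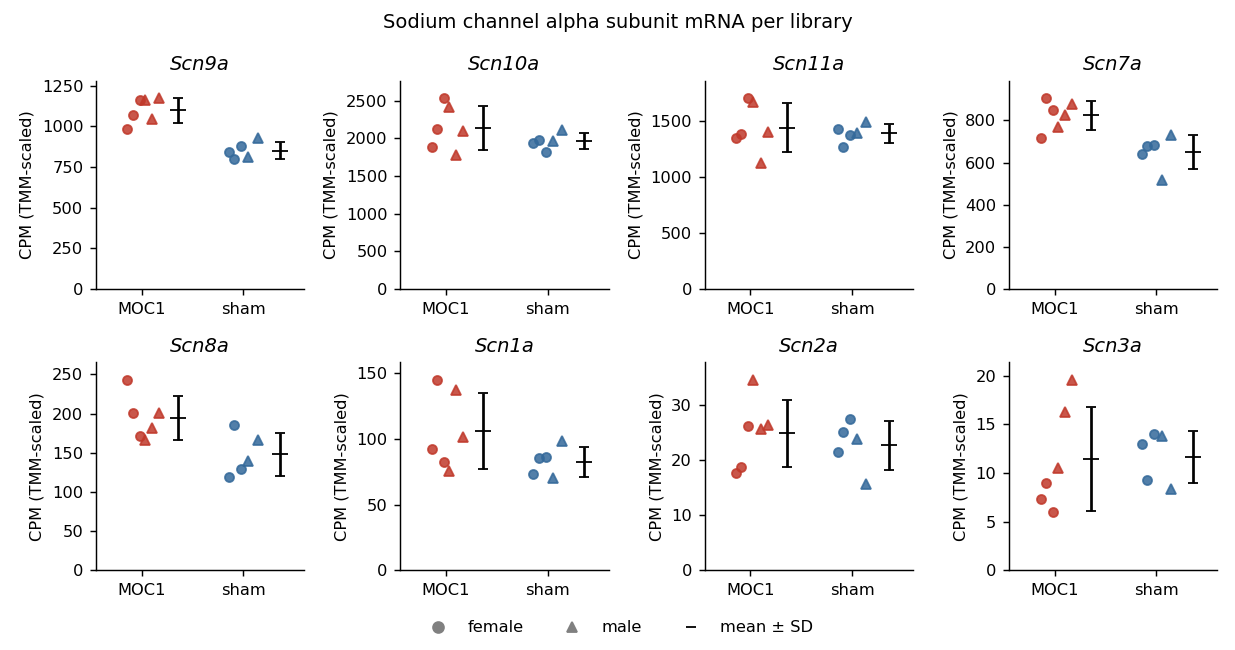
CPM after TMM scaling of the 8 alpha subunit genes, each panel with its own axis from 0, with 1 point per library (MOC1 left, sham right; circles female, triangles male) and the mean ± SD beside the points. Only Scn9a shows MOC1 and sham libraries with no overlap. Scn10a and Scn11a spread more widely among MOC1 than among sham libraries.

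Among the tetrodotoxin-sensitive subunits, Scn9a, the threshold channel of pain-sensing neurons, showed the clearest difference. Female MOC1 libraries 1 to 3 had 984, 1068 and 1163 CPM and male MOC1 libraries 1160, 1045 and 1172 CPM. Sham libraries had 840, 799 and 877 CPM in females and 810 and 929 CPM in males. Every MOC1 library lay above every sham library, a separation without overlap that 2.15% of all genes tested showed in this direction and 4.18% in the other. Scn9a averaged 1099 ± 77.8 CPM over the 6 MOC1 libraries and 851 ± 53.1 CPM over the 5 sham libraries (SD). The log2 fold change was 0.36 ± 0.07 (SE), or 1.29-fold with a 95% interval of 1.17 to 1.41 (adjusted p = 0.0016), and the call held without each library in turn. Scaled to the pan-neuronal markers, it was 0.08 (adjusted p = 0.577).

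Scn8a, which carries most of the current at nodes and initial segments, did not pass the test. It ranged from 167 CPM to 243 CPM in MOC1 libraries, with a median of 191. Sham libraries had 119, 186 and 129 CPM in females and 139 and 166 CPM in males. All MOC1 values were above the sham values with the exception of sham female 2, which reached into the MOC1 range. The log2 fold change was 0.39 ± 0.12, or 1.31-fold with an interval of 1.10 to 1.56 (adjusted p = 0.0569). Its size matched that of Scn9a, with a wider error. The gene passed with DESeq2 (adjusted p = 0.0212), with voom (0.0142) and without the filter on low counts (4.92e-04), where these settings called 3.85%, 3.19% and 2.29% of genes higher in the same order. The DESeq2 share is over 16817 genes, of which 3971 were given no adjusted p. Scn8a also passed when MOC1 female 3 (0.0346), sham female 2 (0.0221) or sham male 3 (0.0372) was left out. The same held without MOC1 female 3, MOC1 male 2 and sham female 1 together (0.0420).

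Scn1a, a channel of larger myelinated neurons and of some pain fibres, had 92.4, 145 and 82.0 CPM in female and 75.4, 137 and 101 CPM in male MOC1 libraries. Sham libraries had 73.1, 85.1 and 86.1 CPM in females and 69.8 and 98.5 CPM in males. MOC1 female 2 and MOC1 male 2 stood far above the rest, and the other MOC1 libraries fell largely within the sham range. The log2 fold change was 0.35 ± 0.16 (adjusted p = 0.227), and it passed only without the filter on low counts (0.0173). Scn2a had 17.5 to 34.5 CPM in MOC1 with a median of 25.8, against 21.5, 25.0 and 27.4 in sham females and 23.7 and 15.6 in sham males. Its groups overlapped, and its log2 fold change of 0.10 ± 0.21 did not pass (adjusted p = 0.874). Scn3a, which is known to rise in injured sensory neurons, had 5.96 to 19.6 CPM in MOC1 with a median of 9.74, against 13.0, 9.27 and 14.0 in sham females and 13.8 and 8.38 in sham males. Its log2 fold change was -0.18 ± 0.30 (adjusted p = 0.839), and the interval of 0.567-fold to 1.36-fold leaves room for a change of either sign.

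The tetrodotoxin-resistant subunits did not pass the test. Scn10a, the main channel of the action potential upstroke in pain-sensing neurons, had 1889, 2133 and 2533 CPM in female and 2424, 1787 and 2096 CPM in male MOC1 libraries. Sham libraries had 1939, 1981 and 1823 CPM in females and 1964 and 2114 CPM in males. MOC1 libraries thus lay on both sides of the sham range. The log2 fold change was 0.13 ± 0.08, or 1.09-fold with an interval of 0.968 to 1.23 (adjusted p = 0.481), and it was -0.15 when scaled to the pan-neuronal markers (adjusted p = 0.345).

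Scn11a, whose persistent current sets the resting excitability of such neurons, had 1351, 1387 and 1702 CPM in female and 1673, 1124 and 1406 CPM in male MOC1 libraries. Sham libraries had 1433, 1266 and 1374 CPM in females and 1391 and 1494 CPM in males. As with Scn10a, MOC1 female 3 and MOC1 male 1 were highest and MOC1 male 2 lowest. The log2 fold change was 0.05 ± 0.09, or 1.04-fold with an interval of 0.909 to 1.18 (adjusted p = 0.855), and it was -0.23 when scaled to the pan-neuronal markers (adjusted p = 0.180). The spread among MOC1 libraries was wider than among sham libraries, with a coefficient of variation of 13.6% against 5.30% for Scn10a and 15.0% against 6.04% for Scn11a. MOC1 female 3 and MOC1 male 1, high in both resistant genes, were the MOC1 libraries lowest in Scn1a. MOC1 male 2, lowest in both resistant genes, was among the highest in Scn1a. However, MOC1 female 2, the highest in Scn1a, had 2133 CPM of Scn10a, above the sham range.

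**Figure D3:**
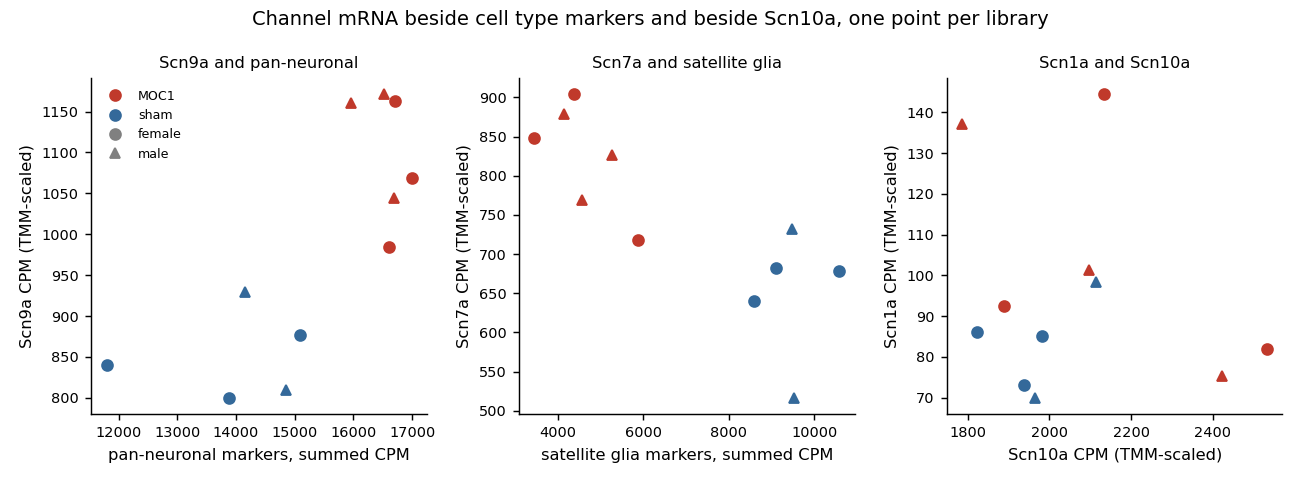
CPM of Scn9a against the summed pan-neuronal markers, of Scn7a against the summed satellite glia markers, and of Scn1a against Scn10a, with 1 point per library (MOC1 red, sham blue; circles female, triangles male). Values of single genes are after TMM scaling, and marker sums are not. The axes do not start at 0. MOC1 libraries lie at high pan-neuronal and low satellite glia sums, and MOC1 libraries with high Scn10a have low Scn1a.

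Scn7a had 718, 905 and 848 CPM in female and 769, 826 and 879 CPM in male MOC1 libraries. Sham libraries had 641, 679 and 682 CPM in females and 516 and 731 CPM in males. MOC1 female 1 lay within the sham range and the other 5 MOC1 libraries above it. Scn7a averaged 824 ± 69.6 CPM over the 6 MOC1 libraries and 650 ± 81.6 CPM over the 5 sham libraries (SD). The log2 fold change was 0.35 ± 0.09, or 1.27-fold with an interval of 1.12 to 1.44 (adjusted p = 0.0166). The call was lost without MOC1 female 2 (0.32, adjusted p = 0.0607) and without sham male 1 (0.26, adjusted p = 0.0664), and it was lost when scaled to the pan-neuronal markers (0.07, adjusted p = 0.721). Scn7a is known in mice from glia as well as from neurons. It was higher in the libraries in which 13 of the 16 satellite glia markers were called lower and none higher. Of all genes tested, 4.28% were called lower and 2.34% higher. The markers not called, Aldoc (-0.22), Glul (-0.42) and S100b (-0.26), also had log2 fold changes below 0. The part of glial RNA in the level of Scn7a was not tested.

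The balance between subunits does not depend on how libraries are scaled. Per kb, the ratio of Scn9a to Scn11a was 0.457 ± 0.056 in MOC1 (SD, n = 6; 0.404 to 0.550) and 0.362 ± 0.015 in sham libraries (SD, n = 5; 0.345 to 0.378), with no overlap. The ratio of Scn9a to Scn10a was 0.346 ± 0.032 in MOC1 (0.307 to 0.391) and 0.290 ± 0.020 in sham libraries (0.270 to 0.322), and here MOC1 female 3 and MOC1 male 1 fell within the sham range. Summed over genes, the sensitive subunits stood at 139 ± 6.29 CPM per kb in MOC1 and 108 ± 6.30 in sham libraries, of which Scn9a made up most. The resistant pair stood at 562 ± 79.3 CPM per kb in MOC1 and 527 ± 25.0 in sham libraries. The resistant pair exceeded the sensitive subunits 4.05 ± 0.523 times in MOC1 and 4.89 ± 0.248 times in sham libraries, with overlapping ranges (3.33 to 4.73 and 4.55 to 5.16). These sums and ratios were chosen with the values of Scn9a known and carry no test.

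**Figure D4:**
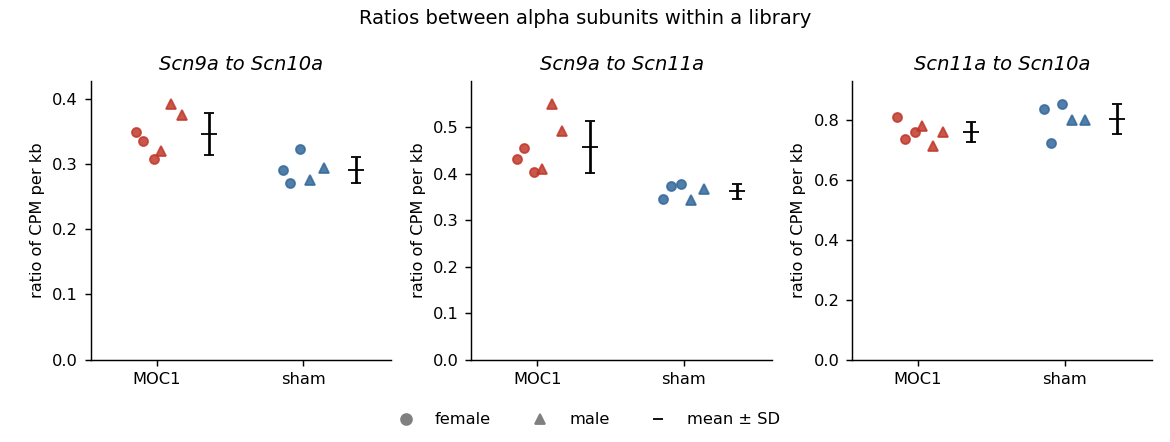
Ratios of CPM per kb between alpha subunits within each library (MOC1 left, sham right; circles female, triangles male; bars mean ± SD; axes from 0). The ratio of Scn9a to Scn11a lies at 0.404 or above in MOC1 and at 0.378 or below in sham libraries. The ratios of Scn9a to Scn10a and of Scn11a to Scn10a overlap.

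The members were also set against neuronal RNA. Per 1000 counts of the pan-neuronal markers, Scn9a had 65.9 ± 5.22 counts in MOC1 and 61.8 ± 6.51 in sham libraries, and Scn7a 49.3 ± 3.43 and 47.3 ± 7.44. Scn10a had 128 ± 17.6 in MOC1 and 143 ± 15.7 in sham libraries, and Scn11a 86.3 ± 13.4 and 101 ± 12.6. All 8 genes overlapped between the groups on this scale, where 0.101% of all genes tested were higher in MOC1 without overlap and 10.2% lower. Nociceptor markers moved in the same direction as the pan-neuronal list. Their summed CPM averaged 4755 ± 351 (4360 to 5198) for MOC1 and 3927 ± 155 (3729 to 4099) for sham libraries. Of these 12 genes, Trpa1, Trpv1 and Calca were called higher, where 2.34% of all genes tested were. The sums of the neuronal lists did not all differ alike. Sums of 12 myelinated A-fibre markers overlapped, averaging 2596 ± 296 for MOC1 and 2490 ± 265 for sham libraries. Their median log2 fold change under TMM scaling was 0.25, beside 0.23 for the nociceptor and 0.28 for the pan-neuronal markers. Among the 12, Cntnap2 was called higher (0.41) and Ntrk2 lower (-0.79). Sums of 8 cold and low-threshold C-fibre markers were higher for MOC1 (1352 ± 128 against 1096 ± 85.6), with Piezo2 called higher. The part of cell makeup in the alpha subunit differences was not tested.

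**Figure D5:**
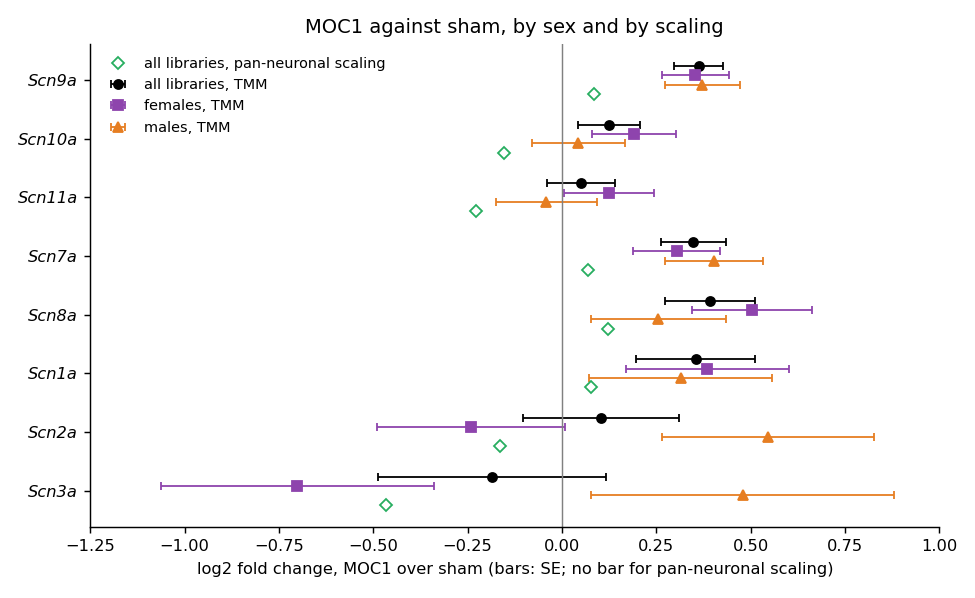
Log2 fold change of MOC1 over sham for the 8 alpha subunit genes in all libraries, in females and in males (TMM scaling, bars are SE) and in all libraries with pan-neuronal scaling (open diamonds, no bar). Scn9a is close to 0.36 in all libraries and in each sex and close to 0.08 with pan-neuronal scaling. Scn2a and Scn3a lie below 0 in females and above 0 in males.

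The comparison was repeated within each sex in a fit of the 4 groups. In females Scn9a was the single member called, at a log2 fold change of 0.35 ± 0.09 (adjusted p = 0.0296), where 1.33% of genes were called higher and 3.15% lower, and 3 of the 8 had an unadjusted p below 0.05, where 17.3% of genes did. The female call on Scn9a was lost without MOC1 female 2 (adjusted p = 0.0882), MOC1 female 3 (0.105), sham female 1 (0.0561) or sham female 2 (0.111). Scn8a had 0.50 ± 0.16 (adjusted p = 0.0851) and Scn7a 0.30 ± 0.12 (adjusted p = 0.166). In males no member was called, where 0.166% of genes were called higher and 1.09% lower, while 2 of the 8 had an unadjusted p below 0.05, where 7.95% of genes did. DESeq2 called Scn9a in males (adjusted p = 0.00448), where it called 0.66% of genes higher, and 2 members in females, where it called 2.91% higher. These shares are over all 16817 genes, of which DESeq2 gave 8169 no adjusted p in males and 1353 in females. The male fold change of Scn9a was 0.37 ± 0.10 (adjusted p = 0.100) and that of Scn7a 0.40 ± 0.13 (adjusted p = 0.231), with 2 sham male libraries behind them. Scn9a passed in males without MOC1 female 3 (adjusted p = 0.0483). Without sham male 3, Scn7a had an adjusted p of 0.0498 in males, where sham male 1 (516 CPM) alone stood for the sham males and was assumed to vary like the other groups.

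The difference between the sexes was tested directly as an interaction, and it called no gene by edgeR or DESeq2. At an unadjusted p below 0.05 edgeR found 708 genes, 4.21% of those tested, and 1 of the 8 members. That member was Scn3a, with a log2 fold change of -0.70 ± 0.36 in females and 0.48 ± 0.40 in males, and a difference of -1.18 ± 0.54 (adjusted p = 1.00). Scn2a had -0.24 ± 0.25 in females and 0.55 ± 0.28 in males, and a difference of -0.79 ± 0.38 (adjusted p = 1.00). For Scn9a the difference was -0.02 ± 0.13, a ratio of 0.987 with an interval of 0.813 to 1.20. Between sham females and sham males, where 0.0178% of genes were called higher in females and 0.0297% lower, the members had log2 differences of -0.09 to 0.32, none called and none with an unadjusted p below 0.05, where 2.87% of genes had one.

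Outside the 8 genes, Scn4a, the skeletal muscle channel, had 11.0 ± 3.48 CPM in the MOC1 and 8.69 ± 3.60 CPM in the sham group (0.40 ± 0.31, adjusted p = 0.578).

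Among 16 genes whose proteins bind, anchor or regulate sodium channels, 3 were called higher under TMM scaling and 0 lower, where 2.34% and 4.28% of all genes tested were, and the median log2 fold change was 0.22. Fgf12 and Fgf13 encode intracellular fibroblast growth factor homologues that bind the channel tail and tune its inactivation. Fgf12 averaged 415 ± 34.8 CPM in the MOC1 and 324 ± 43.1 CPM in the sham group (0.37 ± 0.08, adjusted p = 0.00714). Fgf13 averaged 980 ± 49.8 CPM in the MOC1 and 823 ± 53.9 CPM in the sham group with no overlap (0.24 ± 0.06, adjusted p = 0.0192). Nfasc, the adhesion molecule that holds channels at nodes and initial segments, averaged 185 CPM in the MOC1 and 140 CPM in the sham group (0.41 ± 0.11, adjusted p = 0.0211). Scaled to the pan-neuronal markers, none of the 3 was called, at 0.10 for Fgf12, -0.04 for Fgf13 and 0.14 for Nfasc. Fgf13 also lost the call without sham female 2 (adjusted p = 0.0575), sham male 1 (0.0694) or sham male 3 (0.0611). Nfasc lost it without MOC1 female 2 (adjusted p = 0.0506), sham female 3 (0.0604) or sham male 3 (0.0602), and without MOC1 female 3, MOC1 male 2 and sham female 1 together (0.0694). The 4 next by p did not pass in the test with edgeR. They were the anchor ankyrin G, Ank3 (0.30 ± 0.09, adjusted p = 0.0595), the NaV1.8 chaperone S100a10 (0.31 ± 0.09, 0.0629), the scaffold beta-IV spectrin, Sptbn4 (0.40 ± 0.14, 0.120), and the accessory subunit Scn4b (0.31 ± 0.11, 0.124). Ank3 passed in 9 of the 21 other settings, including the replicate block (adjusted p = 0.0399), DESeq2 (0.0119) and voom (0.00982). S100a10 passed in 5 and Scn4b in 2.

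The called members are neighbours on chromosome 2 (GRCm38). Scn3a, Scn2a, Scn1a, Scn9a and Scn7a lie in that order over 1328 kb, and Scn9a (66480080 to 66634962, minus strand) and Scn7a (66673425 to 66784914, minus strand) are separated by 38.5 kb with no gene between them. Their log2 fold changes in that order were -0.18, 0.10, 0.35, 0.36 and 0.35. Scn1a lies 39.2 kb from Scn9a on its other side. Of the named protein-coding genes between the first and the last that were tested, Csrnp3 had 0.24 (adjusted p = 0.0827), Galnt3 -0.53 (0.610) and Ttc21b -0.32 (0.535). On chromosome 9, Scn10a and Scn11a lie 34.4 kb apart, with 0.13 and 0.05 in that order. Scn8a lies alone on chromosome 15.

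Close relatives share sequence, and reads that map to more than 1 place are not counted to a gene. Over the 75 bases of a read, 7.99% of the coding windows of Scn3a, 5.93% of Scn9a, 5.68% of Scn2a and 3.51% of Scn1a were identical to a window of another alpha subunit. The longest shared runs were 188 bases between Scn1a and Scn2a and 184 bases between Scn3a and Scn9a. Scn7a, Scn8a and Scn11a shared no window. Reads from such windows are missing from the counts of MOC1 and sham libraries alike. The translated proteins were 88.1% identical between Scn1a and Scn2a, 55.9% between Scn10a and Scn11a and 40.6% between Scn7a and Scn11a.

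The genes whose profile over the 11 libraries was nearest to a member were sought by the root mean square difference of centred log2 CPM among 9493 genes with a mean of at least 10 CPM. For Scn9a they were the neuronal kinesin heavy chain Kif5a (0.056), Nipal3 (0.064) and the glucose-bisphosphate synthase Pgm2l1 (0.067). For Scn7a they were the phospholipase family member Pld3 (0.108), the growth factor Pdgfa (0.109) and the dense-core vesicle protein Ptprn2 (0.114). For Scn10a, the subunit with the highest level per kb, they were the ubiquitin ligase Nedd4l (0.056), which is known to act on sodium channels and is among the 16 partners, Cacul1 (0.067) and B4galt6 (0.074). The standard deviation of the members' own log2 CPM over the same libraries was 0.21 for Scn9a, 0.24 for Scn7a and 0.16 for Scn10a. These libraries also differ in their cell type markers between MOC1 and sham, and sex is the only other labelled condition.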

How the data were processed

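The authors deposited raw, strand-specific read counts per gene from STAR, 1 file per library, per the file headers. Poly(A) RNA was sequenced as single-end reads over 75 cycles, per the labels' protocols. Per the submitters' processing notes, trimming used Trimmomatic 0.35, alignment used STAR 2.7.1a and the build was GRCm38 (mm10). RSEM is listed there too. The sources used here do not name the annotation release. The 4 rows that name no gene held 18.7% to 21.5% of counts and were left out.

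Counts were tested in R 4.3.3 with edgeR 4.0.16 (filterByExpr on condition and sex, TMM, quasi-likelihood F test, sex as an additive term, Benjamini-Hochberg over 16817 genes, threshold 0.05). A 4-group fit gave the comparisons within sexes and the interaction. The scripts were tested on simulated data. DESeq2 1.42.0 and limma 3.58.1 (voom) served as alternatives, besides other scalings and filters, no sex term, the replicate number as a block, and each library in turn or 3 together (MOC1 female 3, MOC1 male 2 and sham female 1) left out. Lengths and coding sequences (the longest reading frame) came from GENCODE M21, which matched all 8 members by gene identifier and position, with another identifier version for Scn2a and Scn3a.

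The members, the 16 partners and the marker lists were chosen with earlier results of these data known. All members are named, with Scn4a, the partners called and the next 4 by p. Another gene that the rule takes and some sequence are not reported here. Nearest genes are given for called members and for the highest per kb. Libraries of a group differed by more than sampling noise (chi-square per degree of freedom 13.3 to 39.6). Since separate animals are not stated, p-values measure the spread between these libraries, which may be technical.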

Additional observations from a re-analysis of the deposited data

Results flagged for a closer look

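Within each condition, 48 groups of values on the alpha subunits and their named partners were searched for a library far from the others, by the gap to its nearest neighbour relative to the range. Chance marks about 1 in 20 such groups, and 2 were marked. Fgf13 stood at 727.9 CPM in sham female 2, while the other 4 sham libraries lay between 839 and 855 CPM. Without that library the log2 fold change of Fgf13 was 0.21 (adjusted p = 0.0575). The summed level of the 8 alpha subunits stood at 784.6 CPM per kb in sham male 3, against 700 to 722 in the other 4 sham libraries. Without that library Scn9a kept its call, Scn8a gained one, and the number of genes called higher fell to 258.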

How the results depend on the processing

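Scaling to the pan-neuronal markers changed the most. Genes called higher and lower numbered 27 and 2008 in all libraries, 11 and 1702 in females and 6 and 277 in males, and members called numbered 0 in all libraries and 0 in females. The log2 fold changes of Scn2a (-0.17), Scn10a (-0.15), Scn11a (-0.23) and Fgf13 (-0.04) changed sign, as did Scn7a (-0.039), Scn10a (-0.16) and Scn11a (-0.22) in females, Scn10a (-0.15) in males, and the interactions of Scn1a (-0.070) and Scn10a (-0.011). Without the filter on low counts 4 members were called, among 563 genes higher and 1010 lower. DESeq2 called 648 genes higher in all libraries, 490 in females with 2 members and 111 in males with 1 member, and 9 higher and 14 lower in sham females than in sham males. With voom Scn3a was at 0.0049. The other scalings and filters, no sex term and the removal of 3 libraries kept the calls on Scn9a and Scn7a.

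With each library left out in turn, genes called ranged from 250 (without MOC1 female 2) to 427 higher and 559 to 740 lower, with 1 to 3 members, and without sham female 2 or sham male 3 there were 265 or 258 higher. In females the ranges were 63 to 250 higher, 282 to 626 lower and 0 to 1 member, in males 5 to 49, 57 to 291 and 0 to 1, in sham females against sham males 1 to 6 and 5 to 6, and for the interaction 0 to 2 lower. Signs changed for Scn2a (-0.075 to 0.21) and Scn11a (-0.015 to 0.12), in males for Scn10a (-0.071 to 0.15) and Scn11a (-0.19 to 0.10), and for the interactions of Scn1a (-0.22 to 0.31), Scn7a (-0.37 to 0.13) and Scn9a (-0.12 to 0.075). The cause was not tested.

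Deviations from the group means correlated at -0.036 to 0.069 between MOC1 and sham libraries with the same replicate number. With so few libraries per group, such values cannot tell whether the numbers pair them. With the replicate block 359 genes were called higher and 731 lower, and Scn9a (0.37, adjusted p = 0.00106) and Scn7a (0.34, 0.00696) kept their calls, while Ank3 (0.32, 0.0399) gained one. Scn2a and Scn3a had the fewest counts and the widest intervals of the 8 genes.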
